A study of Mus musculus with 64 samples.

Results

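The 5 striatal libraries with the highest Dbp level and the 5 with the lowest, chosen by their Dbp value from the 16 libraries of the series, were compared across all genes. Dbp encodes a PAR bZIP transcription factor whose mRNA is a strongly rhythmic output of the circadian clock in many tissues. The high Dbp set held the libraries labelled wild type 8, wild type 7, knockout 7, wild type 5 and knockout 6. The low Dbp set held the libraries labelled knockout 8, wild type 6, wild type 2, knockout 1 and knockout 5. Each of the 16 libraries came from 1 mouse of about 50 days without treatment, 8 labelled Csnk1e knockout and 8 labelled wild type, and held poly(A) RNA from striatal punches of both hemispheres pooled per mouse. The labels give neither the sex of the mice, nor the time of day at dissection, nor the deleted part of Csnk1e. Both sets were made from a measured value and are not groups of the study, so Dbp itself was not tested, and a p-value for another gene asks only whether it went with Dbp in these mice.

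In the molecular clock, the activators CLOCK, NPAS2 and BMAL1, the product of Arntl, bind E-boxes and drive the Per and Cry genes, whose products repress their own activators. The same activators drive Nr1d1 and Nr1d2, whose products repress Arntl, and Dbp, whose product binds D-boxes, as do TEF and HLF, while NFIL3 represses the same sites. Genes with E-boxes and Arntl therefore peak at opposite times of day in most tissues. Casein kinase 1 epsilon, the product of Csnk1e, phosphorylates the PERIOD proteins.

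The window of 250 bases before to 50 after the annotated start was read for Dbp and for 20 clock genes from RefSeq promoters of GRCm38.p6, and 18 of the 21 genes matched, giving 24 windows. The 3 windows below were chosen because they hold the most matches to an E-box and to a D-box and because Dbp set the ranking. The windows are chr7:45704997-45705296 on the plus strand for Dbp, chr3:95882179-95882478 on the minus strand for Ciart, named Gm129 in the files, and chr4:151044616-151044915 on the minus strand for Per3. Capitals mark the E-box CACGTG or the D-box TTANGTAA, searched on both strands.
Dbp: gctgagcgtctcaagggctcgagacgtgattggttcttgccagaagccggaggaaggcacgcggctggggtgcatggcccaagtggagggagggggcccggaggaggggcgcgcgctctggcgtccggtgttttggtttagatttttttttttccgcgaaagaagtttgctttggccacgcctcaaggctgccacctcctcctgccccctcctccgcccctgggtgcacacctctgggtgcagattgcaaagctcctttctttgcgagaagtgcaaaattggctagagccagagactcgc
Ciart: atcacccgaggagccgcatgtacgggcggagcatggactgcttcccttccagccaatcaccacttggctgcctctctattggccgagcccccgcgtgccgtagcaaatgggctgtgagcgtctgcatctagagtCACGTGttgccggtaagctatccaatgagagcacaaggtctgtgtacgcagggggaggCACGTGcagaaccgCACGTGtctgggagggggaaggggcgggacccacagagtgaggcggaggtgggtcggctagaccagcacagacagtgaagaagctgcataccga
Per3: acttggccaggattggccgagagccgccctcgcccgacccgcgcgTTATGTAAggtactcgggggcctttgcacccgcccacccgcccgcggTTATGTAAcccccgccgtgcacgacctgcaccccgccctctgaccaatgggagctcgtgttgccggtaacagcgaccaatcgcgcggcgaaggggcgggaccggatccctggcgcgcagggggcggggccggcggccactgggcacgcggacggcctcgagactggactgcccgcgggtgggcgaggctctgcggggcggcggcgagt
The Ciart window held 3 E-boxes, the Per3 window held 2 D-boxes, and the Dbp window held neither motif. The start of Dbp in the gene annotation used further below lies inside its window, and most of the window lies after that start. Per1, Cry1, Bhlhe41 and Tef also had an E-box in a window, and Rorb had a D-box. Over all 32851 promoter windows of the same length, 7.15% held the E-box and 2.32% held the D-box. A match is a description of these letters only.

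Dbp spanned a 1.73-fold range over the 16 libraries. Its level was 85.2, 71.4, 70.1, 69.0 and 68.5 CPM, gene reads scaled to equal library totals, in the high Dbp libraries, in the order given above, and 55.2, 55.0, 53.5, 52.1 and 49.2 CPM in the low Dbp libraries. The high Dbp libraries averaged 72.8 ± 7.01 CPM and the low Dbp libraries 53.0 ± 2.44 CPM (SD, n = 5 each), a ratio of 1.37 that the choice of libraries fixed. Labelled wild type 8 stood apart at the top, and the ratio without it was 1.32. The other 6 libraries lay between 59.2 and 62.9 CPM, so the nearest library outside the high set stood at 62.9 CPM, against 68.5 CPM for the lowest inside it. The nearest library outside the low set stood at 59.2 CPM, against 55.2 CPM for the highest inside it. The 1276 to 2085 Dbp reads per library give each level a counting error of 2.19% to 2.80%, while the middle libraries together spanned a 1.06-fold range. Lanes of either flow cell alone put the same 5 libraries in each set.

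**Figure D1:**
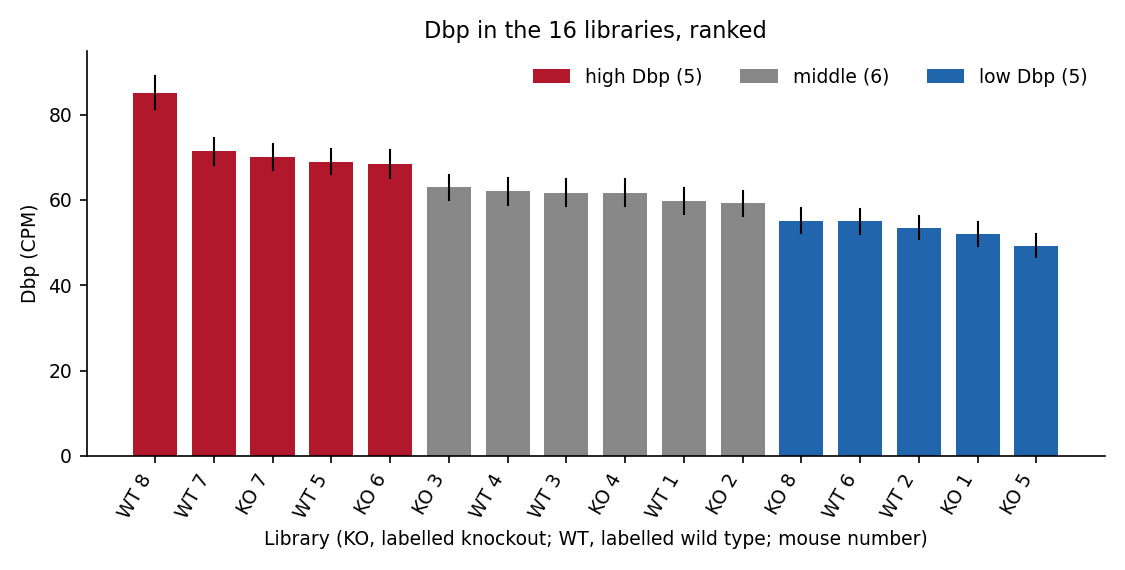
Dbp in CPM for each of the 16 libraries, ranked from the highest, with the high Dbp set in red, the middle libraries in grey and the low Dbp set in blue. Bars are single libraries and black lines are 95% counting intervals; labelled wild type 8 stands at 85.2 CPM and the other 4 high Dbp libraries between 68.5 and 71.4 CPM.

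The sets cut across the labels. Of the 5 high Dbp libraries 2 were labelled knockout, against 3 of the 5 low Dbp libraries (Fisher's exact test, two-sided, p = 1). By Xist and Y-linked genes, 1 high Dbp library and 2 low Dbp libraries were female-like (Fisher's exact test, two-sided, p = 1). Csnk1e went against its labels across the series, from 38.6 to 86.0 CPM with both labelled genotypes in its lower and its upper range, so genotypes are given here as labels only. It lay in the lower range in 3 high Dbp libraries and in 2 low Dbp libraries, averaging 55.0 ± 18.0 CPM in the high Dbp libraries and 64.4 ± 20.9 CPM in the low Dbp libraries (SD, n = 5 each). The library number of the labels averaged 13 in the high Dbp set and 8.2 in the low Dbp set (exact permutation test, two-sided, p = 0.167). Over all 16 libraries, log2 Dbp went with the library number at Pearson's r = 0.55 (permutation p = 0.0265, adjusted over 3 relations 0.0397) and Spearman's rho = 0.54 (permutation p = 0.0323, adjusted 0.0970). Without labelled wild type 8 and labelled knockout 1, the libraries with the numbers farthest from the median, r was 0.29. Within the labelled knockouts r was 0.30 and within the labelled wild types 0.63 (n = 8 each). The labels do not say whether the number marks an order of dissection, extraction or preparation.

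All 16 libraries held between 22088005 and 30238947 gene reads, and the difference in gene reads between the sets had a p of 0.698 (exact permutation test, two-sided). Ppp1r1b, which encodes DARPP-32 and marks striatal projection neurons, stood at 1191 ± 154 CPM in the high Dbp libraries and 1024 ± 185 CPM in the low Dbp libraries (SD, n = 5 each). Choroid plexus transcripts stood apart in 1 library of each set, labelled wild type 7 in the high set and labelled knockout 1 in the low set. Labelled knockout 3, which held transcripts of both sexes, was among the middle libraries.

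No gene passed the test between the sets. Of 15516 genes tested, 0 (0%) were called at an adjusted p under 0.05 with the quasi-likelihood test of edgeR and Benjamini-Hochberg adjustment, and 0 with limma-voom, while DESeq2 called 45, 30 higher and 15 lower in the high Dbp libraries. At an unadjusted p under 0.05, 565 genes (3.64%) were higher and 474 (3.05%) lower in the high Dbp libraries. Every high Dbp library lay above every low Dbp library for 92 genes (0.593%) and below for 62 (0.4%). The median log2 fold change over all genes was −0.0006 (high over low), and 49.8% of genes lay above 0.

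The clock genes that E-boxes drive all had a higher mean in the high Dbp libraries, by small amounts, and none was called. All 10 genes of this repressor arm had a log2 fold change above 0, from 0.02 to 0.30 with a median of 0.14, and 2 of the 10 had an unadjusted p under 0.05, against 3.64% of all genes. Per3, a period gene, stood at 82.8, 73.4, 76.4, 80.9 and 87.8 CPM in the high Dbp libraries and at 75.2, 70.3, 62.4, 75.9 and 74.3 CPM in the low Dbp libraries. The sets overlapped, since labelled wild type 7 lay below 3 low Dbp libraries, and the log2 fold change was 0.16 ± 0.07 (SE), with an unadjusted p of 0.0315 and an edgeR adjusted p of 0.709. Bhlhe41, which encodes the E-box repressor DEC2, stood at 51.2, 62.8, 60.4, 88.2 and 63.4 CPM in the high Dbp libraries and at 63.1, 49.5, 47.4, 50.7 and 54.1 CPM in the low Dbp libraries. Labelled wild type 5 was far above the others of its set, and labelled knockout 8, a low Dbp library, lay above 3 of the high Dbp libraries. The log2 fold change of Bhlhe41 was 0.30 ± 0.13 (SE), with an edgeR adjusted p of 0.709.

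The other genes of the repressor arm overlapped between the sets. Per1, the period gene most readily induced by signals, stood at 116, 75.2, 88.7, 128 and 123 CPM in the high Dbp libraries and at 96.4, 70.9, 86.2, 119 and 92.2 CPM in the low Dbp libraries. Its log2 fold change was 0.19, with a 95% interval from −0.14 to 0.52. Per2 averaged 58.2 ± 12.7 CPM in the high Dbp libraries and 50.0 ± 14.2 CPM in the low Dbp libraries (SD, n = 5 each), and labelled knockout 8, at 74.1 CPM, lay far above the other low Dbp libraries, which ended at 49.4 CPM. Both cryptochromes, the partners of the PER proteins, had a positive value, of 0.16 for Cry1 and 0.05 for Cry2 on the log2 scale. Nr1d1 and Nr1d2, which encode the REV-ERB repressors of Arntl, had log2 fold changes of 0.05 and 0.02. Gm129 (Ciart), a repressor of CLOCK and BMAL1, had a log2 fold change of 0.13, and Bhlhe40 (DEC1) one of 0.04. The count of 10 of 10 above 0 was 7 of 10 with the top 8 against the bottom 8 libraries, where the median was 0.04 and none of the 10 had an unadjusted p under 0.05. It was 9 of 10 without the 2 libraries rich in choroid plexus transcripts.

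The activator arm gave values on both sides of 0. Arntl stood at 24.3, 31.2, 27.6, 34.7 and 29.0 CPM in the high Dbp libraries and at 37.6, 27.0, 31.9, 35.0 and 31.2 CPM in the low Dbp libraries. The sets overlapped, with the lowest value in labelled wild type 8 and the highest in labelled knockout 8, and the log2 fold change was −0.15 with a 95% interval from −0.37 to 0.07. With a score of oligodendrocyte genes as a covariate it was 0.05. Clock and Npas2, the partners of BMAL1, had log2 fold changes of −0.04 and −0.0036. Arntl2, a paralog of Arntl, and Rora and Rorb, whose products activate Arntl, had values of 0.15 for Arntl2, 0.12 for Rora and 0.06 for Rorb. None of the 7 genes of this arm had an unadjusted p under 0.05.

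The factors that share the D-box with DBP gave no call. Tef, a PAR bZIP gene like Dbp, averaged 584 ± 46.3 CPM in the high Dbp libraries and 541 ± 34.9 CPM in the low Dbp libraries (SD, n = 5 each), with a log2 fold change of 0.11 ± 0.07 (SE). Hlf had a log2 fold change of 0.08 and Nfil3 one of 0.04, and none of the 3 had an unadjusted p under 0.05. Of 13 genes that cycle in many tissues, 8 lay above 0 and none had an unadjusted p under 0.05. Among them Usp2, a ubiquitin protease, had a log2 fold change of 0.07, Tspan4, a tetraspanin, 0.10, Tsc22d3, a glucocorticoid target, 0.10, and Wee1, a cell cycle kinase, −0.09. Of 12 genes for kinases, ubiquitin ligases and other partners of the clock proteins, 3 lay above 0, and Csnk1d, the paralog of Csnk1e, had a log2 fold change of 0.06 ± 0.05 (SE). No clock gene thus passed the test, and the split is named here by Dbp and not by a phase of the clock.

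**Figure D2:**
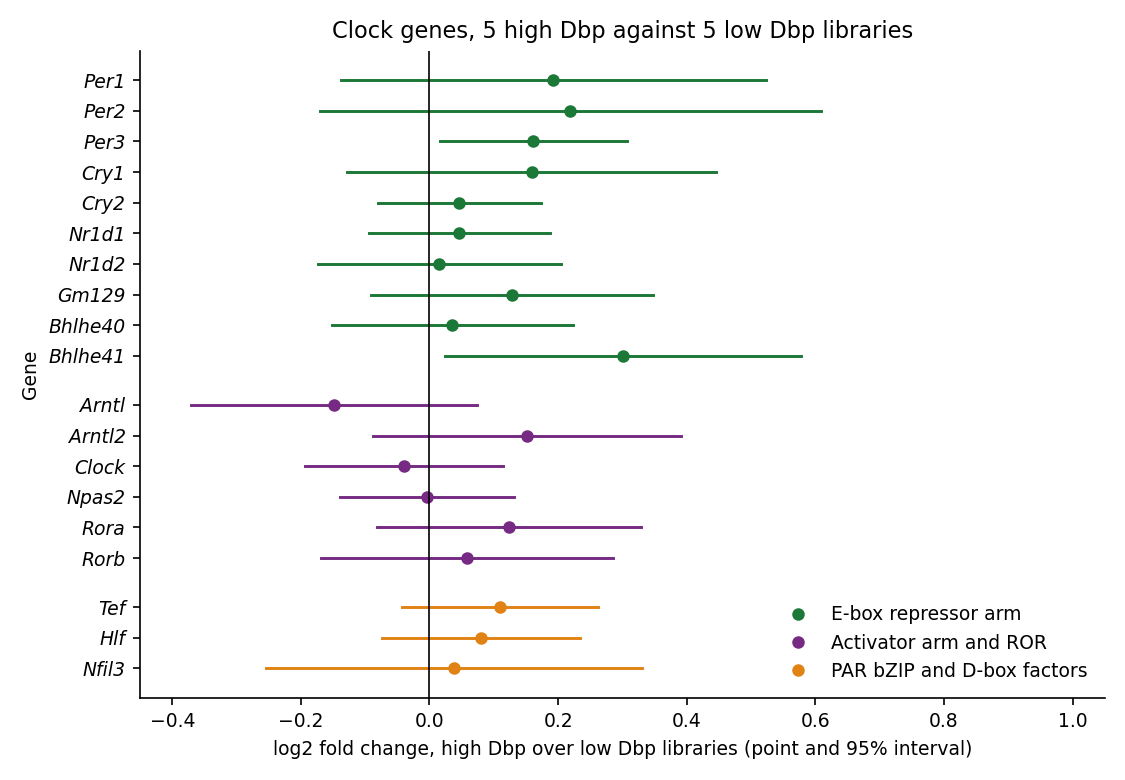
Log2 fold change of clock genes, 5 high Dbp over 5 low Dbp libraries, with 95% intervals, grouped as the E-box repressor arm, the activator arm with the ROR genes, and the PAR bZIP and D-box factors. All 10 repressor arm genes lie above 0, and the intervals of Per3 and Bhlhe41 leave 0 out without adjustment for the number of genes.

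Genes next to Dbp gave no call. Dbp lies on the plus strand at chr7:45705088-45710203 in GRCm38, and the 3′ end of Sphk2, a sphingosine kinase gene on the minus strand, overlaps its end. Sphk2 averaged 21.5 CPM in the high Dbp libraries and 21.7 CPM in the low Dbp libraries, a log2 fold change of −0.02. The libraries were made with a stranded kit, but no label states the strand setting of the counting, so reads in the overlap cannot be assigned. Car11, the other neighbour, which encodes a carbonic anhydrase related protein, averaged 260 ± 25.3 CPM in the high Dbp libraries and 234 ± 11.3 CPM in the low Dbp libraries (SD, n = 5 each), with a log2 fold change of 0.15 and an edgeR adjusted p of 0.749. Of 12 tested genes around Dbp, from a list of its neighbours on chromosome 7, 8 lay above 0, with a median log2 fold change of 0.04 and none at an unadjusted p under 0.05. That list does not hold every gene near Dbp. Lmtk3, 73.5 kb beyond the end of Dbp, was not on it and is among the genes of smallest p described next.

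The 10 genes of smallest p held 7 higher and 3 lower in the high Dbp libraries, and none was called by edgeR, while DESeq2 called all 10. Gng2, which encodes a gamma subunit of heterotrimeric G proteins, had the smallest p. It stood at 105, 106, 124, 101 and 97.8 CPM in the high Dbp libraries and at 159, 145, 165, 135 and 149 CPM in the low Dbp libraries. Every high Dbp library lay below every low Dbp library, and the log2 fold change was −0.50 ± 0.07 (SE), with an edgeR adjusted p of 0.114. Without the library labelled knockout 7, the highest of the high Dbp set, the adjusted p was 0.0143 and the log2 fold change −0.55. The middle libraries spanned 119 to 182 CPM and so reached above the low Dbp set.

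Homer2, a scaffold protein of excitatory synapses, averaged 42.0 ± 3.89 CPM in the high Dbp libraries and 56.4 ± 7.01 CPM in the low Dbp libraries (SD, n = 5 each), with a log2 fold change of −0.43 and an edgeR adjusted p of 0.421. The third gene on the lower side, 3110047P20Rik, had a log2 fold change of −0.57. Foxj1, the transcription factor of motile cilia, lay between 10.4 and 12.4 CPM in the high Dbp libraries and between 6.56 and 9.52 CPM in the low Dbp libraries, with no overlap. Its log2 fold change was 0.53 ± 0.10 (SE), with an edgeR adjusted p of 0.421. Carns1 and Adamts4, which encode carnosine synthase and an aggrecanase and are known from oligodendrocytes, had log2 fold changes of 0.43 and 0.38. Impg1, a matrix proteoglycan gene best known from the retina, had a log2 fold change of 0.90 at 5.04 ± 0.79 CPM in the high Dbp libraries and 2.69 ± 0.69 CPM in the low Dbp libraries (SD, n = 5 each). Lmtk3, a kinase gene expressed in neurons, lies 73.5 kb beyond the end of Dbp at chr7:45783738-45804144 and stood at 237, 192, 218, 211 and 224 CPM in the high Dbp libraries and at 172, 160, 184, 174 and 152 CPM in the low Dbp libraries. The sets did not overlap, and the log2 fold change of Lmtk3 was 0.36 ± 0.07 (SE). Ssbp4 and Nrtn, the other 2 of the 10, are described with the slope on Dbp.

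Oligodendrocyte transcripts had higher means in the high Dbp libraries. All 18 myelin and oligodendrocyte genes lay above 0, from 0.18 to 0.50 with a median of 0.29, and 11 of the 18 had an unadjusted p under 0.05, against 3.64% of all genes. None was called by edgeR, and DESeq2 called 1, Mobp. Mobp, a myelin protein gene, stood at 1047, 866, 838, 909 and 751 CPM in the high Dbp libraries and at 533, 697, 691, 657 and 656 CPM in the low Dbp libraries. The sets did not overlap, and the log2 fold change of Mobp was 0.45 ± 0.10 (SE), with an edgeR adjusted p of 0.421. Mbp, the main myelin basic protein gene, averaged 6517 ± 767 CPM in the high Dbp libraries and 5279 ± 788 CPM in the low Dbp libraries (SD, n = 5 each), a log2 fold change of 0.30. The summed level of the 18 genes was 17626, 18117, 16973, 13347 and 15774 CPM in the high Dbp libraries and 10759, 15540, 13342, 14065 and 13762 CPM in the low Dbp libraries. The sums overlapped through labelled wild type 5. The middle libraries spanned 9455 to 16109 CPM, and so reached below the low Dbp set and into the high Dbp set. In bulk tissue, more cells of a type and more RNA per cell cannot be told apart.

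Of 8 markers of oligodendrocyte precursors, 7 lay above 0 and 2 were at an unadjusted p under 0.05 on the higher side, against 3.64% of all genes. Among the 2 was Olig1, a transcription factor of the lineage, at a log2 fold change of 0.44. Of 8 ependymal genes 7 lay above 0 with a median of 0.49, and 3, Foxj1, Ak7 and Tmem212, had an unadjusted p under 0.05, against the same share of all genes. Their summed level was low, from 20.8 to 30.4 CPM in the high Dbp libraries and from 15.5 to 24.6 CPM in the low Dbp libraries. The choroid plexus list had 7 of 7 tested genes above 0 and a median of 0.49. Its summed level ran from 16.8 to 2429 CPM within the high Dbp set and from 14.7 to 1659 CPM within the low Dbp set. Without the 2 libraries rich in these transcripts, 5 of the 7 lay above 0, with a median of 0.23 and 1 at an unadjusted p under 0.05. In the same fit, 18 of 18 oligodendrocyte genes lay above 0 with 9 at such a p, and 7 of 8 ependymal genes lay above 0 with 1. Over all genes, 1662 of 15519 had such a p in either direction in that fit, against 1039 of 15516 with all 10 libraries.

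Cortical excitatory neuron markers mostly had lower means in the high Dbp libraries. Of 11 such genes 3 lay above 0, with a median log2 fold change of −0.17, and 2 of the 11 had unadjusted p-values under 0.05, against 3.05% of all genes. Among them Neurod6, a transcription factor of cortical projection neurons, averaged 23.8 ± 7.20 CPM in the high Dbp libraries and 35.0 ± 7.26 CPM in the low Dbp libraries (SD, n = 5 each), a log2 fold change of −0.56. The summed level of the 11 genes overlapped, from 1767 to 2552 CPM in the high Dbp libraries and from 1705 to 2597 CPM in the low Dbp libraries. With the top 8 against the bottom 8 libraries, 4 of the 11 lay above 0, the median was −0.03 and none had an unadjusted p under 0.05. Striatal projection neuron genes lay above 0 in 13 of 14 cases with a median of 0.11, and none had an unadjusted p under 0.05. With the top 8 against the bottom 8 libraries, 4 of the 14 lay above 0. Of 9 indirect pathway markers 7 lay above 0 with a median of 0.13, and 2 had an unadjusted p under 0.05, Gpr6, a receptor gene, at 0.41 and Sp9, a transcription factor, at 0.31, against 3.64% of all genes. Of 9 direct pathway markers 7 lay above 0 with a median of 0.15. Only Pdyn, which encodes prodynorphin, had such a p, at 0.26, against the same 3.64% of all genes. With the top 8 against the bottom 8, 4 of the 9 indirect and 5 of the 9 direct pathway markers lay above 0, none of them at such a p. Of 12 interneuron genes 5 lay above 0 with a median of −0.05. Only the peptide gene Vip, at −0.58, had an unadjusted p under 0.05, against 3.05% of all genes on the lower side. Without the 2 choroid plexus libraries 7 of the 12 lay above 0. Astrocyte, microglia, endothelial and mural lists had medians between −0.07 and 0.00 with no member at an unadjusted p under 0.05. Above 0 lay 5 of 12 astrocyte, 1 of 12 microglia, 5 of 10 endothelial and 3 of 10 mural genes. How much these tissue shares account for any gene's value was not tested.

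**Figure D3:**
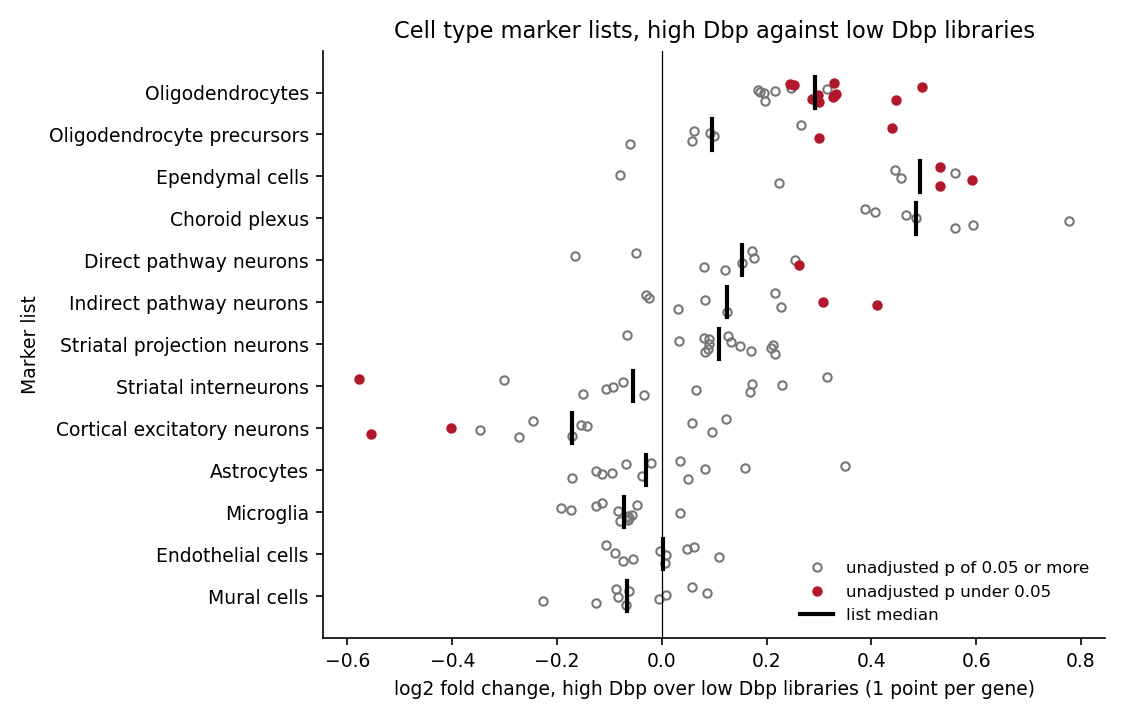
Log2 fold change, 5 high Dbp over 5 low Dbp libraries, of each tested gene in 13 cell type lists, with list medians as black bars and genes of unadjusted p under 0.05 filled in red. All 18 oligodendrocyte genes lie above 0, while 8 of 11 cortical excitatory neuron genes lie below 0.

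Genes that respond to other daily signals gave no call by edgeR. Of 18 glucocorticoid-responsive genes 14 lay above 0 with a median log2 fold change of 0.07. The only one at an unadjusted p under 0.05 was Zbtb16, a zinc finger gene, at −0.54 (13.3 ± 3.27 CPM in the high Dbp libraries and 19.2 ± 5.47 CPM in the low Dbp libraries, SD, n = 5 each). Over all genes, 3.05% were lower at such a p. Without labelled wild type 8, 12 of the 18 genes lay above 0, with a median of 0.02. With the top 8 against the bottom 8 libraries 8 of the 18 did, with a median of −0.008. Cirbp and Rbm3, which encode RNA-binding proteins induced by mild cold and often rhythmic with body temperature, had log2 fold changes of 0.08 and 0.12. Heat shock genes lay below 0 in 13 of 15 cases with a median of −0.07. Hsp90aa1, a chaperone gene, at −0.17 was the only one at an unadjusted p under 0.05, against the same 3.05% of all genes. With the top 8 against the bottom 8, 6 of the 15 lay above 0, with a median of −0.03. Of 20 activity-regulated genes 6 lay above 0 with a median of −0.09, and none was called by edgeR. At an unadjusted p under 0.05, 2 were higher and 3 lower, against 3.64% and 3.05% of all genes. The count above 0 was 13 of 20 with library number as a covariate, with a median of 0.17, 13 of 20 without the 2 choroid plexus libraries, with a median of 0.05, and 3 of 20 with the top 8 against the bottom 8. Egr3 and Egr4, early growth response factors, had log2 fold changes of 0.32 and 0.48, while Nr4a2, Btg2 and Nptx2 had −0.73, −0.38 and −0.32, all 5 at an unadjusted p under 0.05, and DESeq2 called Egr3. Fos, the standard marker of recent activity, had a value of −0.14 and was not at such a p.

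A slope on log2 Dbp over all 16 libraries called 13 genes higher with Dbp (0.0818% of 15902 tested) and 0 lower (0%), by edgeR's quasi-likelihood test with Benjamini-Hochberg adjustment at 0.05. This fit holds the same 10 libraries and is not independent of the comparison of the sets. The 13 genes were named after their values were seen: Ssbp4, Nrtn, Ccdc85b, Prr7, Scand1, Zfp579, Tmem259, Gpr27, Ier5l, Hist3h2ba, Apba3, C1qtnf4 and 9130019P16Rik. No clock gene was among them. Ssbp4, which encodes a single-stranded DNA binding protein, rose by 0.80 ± 0.09 (SE) on the log2 scale per doubling of Dbp, with an edgeR adjusted p of 0.00033. It stood at 108, 83.3, 91.7, 84.2 and 87.5 CPM in the high Dbp libraries and at 70.5, 75.3, 73.2, 69.7 and 65.2 CPM in the low Dbp libraries. The sets did not overlap, and the 6 middle libraries lay between 77.4 and 84.5 CPM.

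Nrtn, which encodes the neurotrophic factor neurturin, rose by 3.59 ± 0.45 (SE) on the log2 scale per doubling of Dbp, with an edgeR adjusted p of 0.0014, from very low levels. It stood at 3.07, 1.19, 1.24, 1.29 and 0.919 CPM in the high Dbp libraries and at 0.341, 0.568, 0.566, 0.433 and 0.540 CPM in the low Dbp libraries, and labelled wild type 8 was far above the rest. Scand1, a SCAN domain gene, and Ier5l, an immediate early response gene, rose by 2.82 and 1.91 per doubling, with edgeR adjusted p-values of 0.0265 and 0.0303. All 13 genes were highest in labelled wild type 8, as were 10.6% of the tested genes. Without labelled wild type 8 no gene passed (0 calls, 695 genes with an unadjusted p below 0.05), and all 13 slopes stayed positive. The 13 were chosen by their slopes in these same libraries, so the kept sign is no separate test. The count of calls was 2 without any one of labelled knockouts 1, 5 and 7 and labelled wild type 3, and 8 without labelled knockout 3 or labelled wild type 6. It was 21 to 33 without any one of labelled knockout 4 and labelled wild types 1, 2, 5 and 7. The slope of Arntl was −0.43 per doubling, with an unadjusted p of 0.0325 and an edgeR adjusted p of 0.450, and that of Per3 was 0.29, with an edgeR adjusted p of 0.516. Whether slopes differed between the labelled genotypes was tested by an interaction, for which 0 of 16071 genes (0%) passed, the smallest edgeR adjusted p was 0.955 and 760 genes had an unadjusted p below 0.05.

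**Figure D4:**
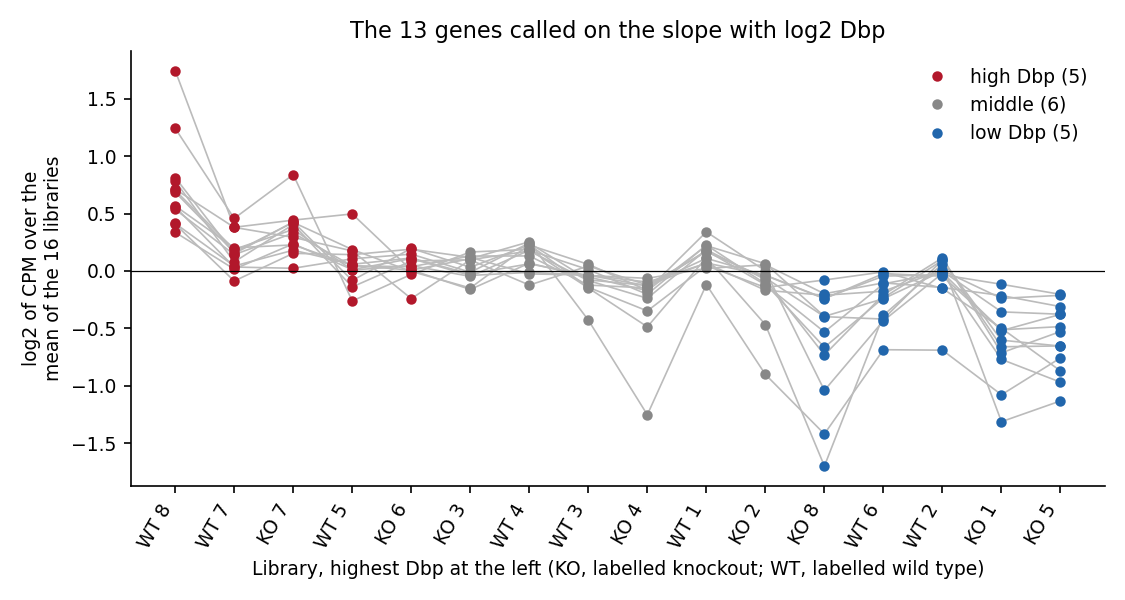
Log2 of CPM over the mean of the 16 libraries for the 13 genes called on the slope with log2 Dbp, 1 line per gene, with libraries from the highest Dbp at the left to the lowest at the right. All 13 genes are highest in labelled wild type 8 at the left, and most points of the 5 low Dbp libraries lie below 0.

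The called genes shared a high GC content with Dbp. The slope used Dbp levels not adjusted for GC, so this shared content is not independent of how the genes were called. The Dbp transcript has 61.6% G and C, more than 97.7% of 14126 expressed genes, whose median was 50.2%. All 13 genes lay above the median, and 9 had more than 60%, with a median of 63.8%. Dbp, Nrtn as the called gene of highest GC and Gng2 as the gene of smallest p on the lower side are shown by the middle 120 coding bases of the GENCODE M21 transcript, with G and C in capitals.
Dbp: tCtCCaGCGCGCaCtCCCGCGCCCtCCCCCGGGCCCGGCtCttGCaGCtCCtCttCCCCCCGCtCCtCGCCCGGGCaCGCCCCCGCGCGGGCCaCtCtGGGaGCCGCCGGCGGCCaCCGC
Nrtn: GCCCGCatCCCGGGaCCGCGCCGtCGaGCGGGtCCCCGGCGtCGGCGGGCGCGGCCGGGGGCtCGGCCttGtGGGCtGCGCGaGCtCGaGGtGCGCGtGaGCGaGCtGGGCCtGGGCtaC
Gng2: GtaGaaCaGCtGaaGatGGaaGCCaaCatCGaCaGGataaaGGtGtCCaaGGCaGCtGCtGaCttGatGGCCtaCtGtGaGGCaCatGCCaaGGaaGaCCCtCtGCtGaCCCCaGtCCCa
These stretches hold 81.7%, 80.8% and 54.2% G and C, and the whole transcripts 61.6%, 72.8% and 43.8%.

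Across all genes with a transcript, the fold change followed GC. The correlation of log2 fold change (high over low Dbp) with transcript GC was r = 0.26 over 15372 genes, which share the same 10 libraries and are not independent. With genes split by GC into 10 bins of equal size, in the bin of lowest GC the median log2 fold change was −0.05, with 0.585% of genes at an unadjusted p under 0.05 on the higher side and 4.49% on the lower. In the bin of highest GC the median was 0.09, with 15.1% on the higher side and 0.325% on the lower. Among the 374 genes within 1 percentage point of the GC of Dbp, 81.8% lay above 0 with a median of 0.12, and 19.8% had an unadjusted p under 0.05 on the higher side.

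The libraries differed in this respect one by one. The slope of log2 level on GC, relative to the mean of all libraries, was 0.14, −0.07, 0.09, −0.05 and 0.02 per 10 points of GC in the high Dbp libraries, in the order given above, and −0.11, −0.05, 0.00, −0.01 and −0.04 in the low Dbp libraries. The slopes overlapped, and labelled wild type 8 and labelled knockout 7 had the most positive. Over 16 libraries log2 Dbp went with the GC slope at r = 0.56 (permutation p = 0.0247, adjusted over 3 relations 0.0397) and rho = 0.40 (permutation p = 0.130, adjusted 0.194). Without labelled wild type 8 and labelled knockout 8, the libraries farthest from the median slope, r was 0.20. Within the labelled knockouts r was 0.71 and within the labelled wild types 0.46 (n = 8 each). With each gene's level adjusted for GC, the same 5 libraries had the highest Dbp, and labelled knockout 8 left the low set, at rank 8, with labelled wild type 1 taking its place. With the same adjustment, 6 of the 13 genes were called on the slope. Within a library, Dbp and all genes of higher GC, such as Nrtn, got an equal adjustment, so any further trend among them was left in. All 10 repressor arm genes and all 18 oligodendrocyte genes still lay above 0 between the sets, with medians of 0.12 and 0.28. With the libraries ranked by the adjusted Dbp, 9 of the 10 and all 18 lay above 0, with lower medians of 0.09 and 0.17. The oligodendrocyte genes at an unadjusted p under 0.05 were then 4 of 18, and 1 of the 13 genes was called on the slope. Of the 8 precursor markers, 5 lay above 0 with GC adjustment, 1 of them at an unadjusted p under 0.05. With the adjusted ranking 5 of the 8 did, none at such a p. Over all genes, 938 of 15516 had such a p in either direction with GC adjustment, and 861 of 15475 with the adjusted ranking.

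**Figure D5:**
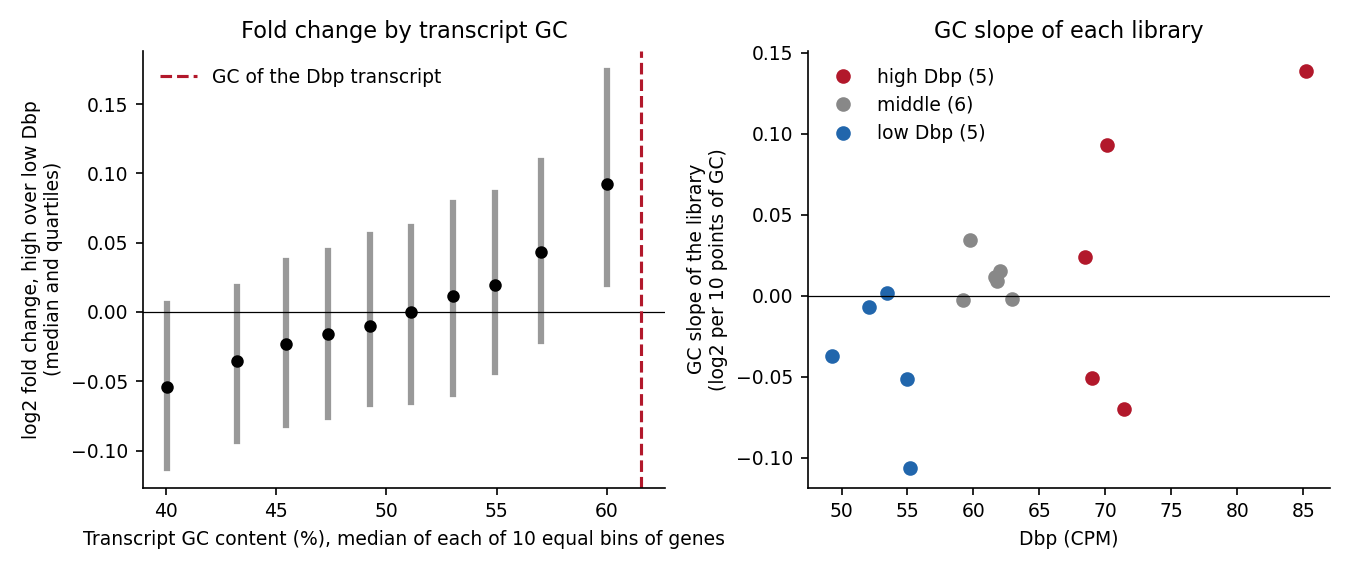
Left, median and quartiles of the log2 fold change, 5 high Dbp over 5 low Dbp libraries, for 10 equal bins of genes by transcript GC content, with the GC of the Dbp transcript as a dashed line; medians run from −0.05 to 0.09. Right, the GC slope of each library against its Dbp level in CPM, where labelled wild type 8 lies at the top right at 0.14.

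The 6 middle libraries, which the comparison had not used, gave lower shares in the direction of the comparison. Of the 565 genes higher in the high Dbp libraries at an unadjusted p under 0.05, 34.2% had a positive Pearson correlation with Dbp over the 6 middle libraries, against 52.5% of all genes tested. Of the 474 lower genes 74.7% had one. By Spearman's correlation these shares were 45.8% and 65.6%, against 52.7% of all genes. Dbp varied little among these libraries, so the shares are given as a description.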

How the data were processed

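Striatal RNA of 16 mice was sequenced as poly(A) selected, stranded libraries with single 50 base reads in 4 lanes each, per the labels' protocols. The authors deposited read counts per gene for each of the 64 lanes, whole numbers without normalization. Per the submitters' processing notes, the genome was mm10 and the tools included HTSeq 0.6.1p1, TopHat2 2.0.0, FastQC 0.10.1 and edgeR 2.14, with no gene annotation or strand setting stated. Reads in no gene (18.0% to 19.8% of a library), in several genes (0.77% to 0.83%) and with several alignments (21.1% to 22.9%) entered neither library sizes nor tests.

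The 4 lanes were summed per library and divided by the library's gene reads to give CPM. Libraries were ranked by Dbp, the top 5 and bottom 5 formed the sets, and Dbp was taken out before adjustment. Only the adjusted p-values of DESeq2 were made with Dbp still among the genes, and its row was dropped afterwards. The quasi-likelihood test of edgeR 4.0.16 (R 4.3.3) with TMM scaling and the tool's own expression filter was fitted across all genes, with Benjamini-Hochberg adjustment and calls at an adjusted p under 0.05. The slope used centred log2 of Dbp CPM over all 16 libraries. DESeq2 1.42.0, limma-voom 3.58.1, other scalings, filters, set sizes, covariates and left-out libraries were alternatives, and the tests were tried on simulated counts. Exact and 100000-resample permutation tests used Python 3.11.15, numpy 2.4.6 and scipy 1.17.1. Intervals of counts cover counting error only, since reads carried no molecular identifiers. The p-values measure the spread between mice as labelled.

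The comparison, its members, the gene lists and the naming rule were chosen with earlier results of these data known. The rule names Dbp, Csnk1e, the members of 3 clock lists and 5 further clock genes, the 10 genes of smallest p where fewer than 5 were called, and the 2 of smallest p in each other list. Mbp, Tmem212, Nr4a2, Btg2, Nptx2, Fos, Sphk2 and the genes of the slope were named after their values were seen. Values of some genes that the rule names are not reported here. Transcript GC content came from GENCODE M21 on GRCm38 for 98.4% of 23420 gene symbols. The GC slope of a library was fitted over genes with a mean of at least 1 CPM after adding 0.1 CPM. GC adjustment used the median deviation in 20 bins of genes, interpolated between the bins and held constant beyond the outermost ones. The GC slope and the GC adjustment were added after the data were seen. Mouse numbers of the labels did not pair the libraries: correlations of deviations within 8 pairs ran from −0.39 to 0.07, with 0 over 0.1.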

Additional observations from a re-analysis of the deposited data

Results flagged for a closer look

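Within each set of 5 libraries, the gap between the end library and its neighbour was compared with the range of the set for the genes described above. Of 116 such groups, 7 held a library past the critical value of Dixon's test, and chance alone marks about 1 in 20. Dbp, which chose the sets, was not examined. In the high Dbp set, Nrtn stood at 3.07 CPM in labelled wild type 8, against 0.919 to 1.29 CPM in the other 4. Labelled knockout 6 had 191 CPM of Nr1d1, the REV-ERB alpha gene, against 160 to 168 CPM in the other high Dbp libraries, and 30.4 CPM of the clock repressor Gm129, against 20.7 to 22.4 CPM. Hlf, the PAR bZIP relative of Dbp, was at 322 CPM in labelled wild type 5, against 263 to 278 CPM.

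In the low Dbp set, labelled knockout 8 had 74.1 CPM of the period gene Per2, against 39.5 to 49.4 CPM in the other 4, and 533 CPM of the myelin gene Mobp, against 656 to 697 CPM. Bhlhe40, which encodes DEC1, was at 74.2 CPM in labelled knockout 5, against 56.9 to 61.2 CPM.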

How the results depend on the processing

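Between the sets edgeR called 0 genes, and 0 under 33 of 38 alternatives. The count was 45 with DESeq2, 1 with an oligodendrocyte score as a covariate, 6 with a cortical score and 10 with a projection neuron score, and 0 to 1 over the fits that left out 1 library; the 1 gene was Gng2, without labelled knockout 7. The interaction with labelled genotype called 0 under both scalings.

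The slope called 13 genes, but 31 with the replicate block of mouse numbers (3 of the 13 among them), 30 with library number as a covariate (8 of the 13), 3 with labelled genotype (all 3 among the 13), 103 with DESeq2 (12 of the 13), 0 within the labelled knockouts and 0 within the labelled wild types. Leaving out 1 library gave 0 to 33, leaving out both choroid plexus libraries 4, and leaving out labelled knockout 3 gave 8. The library GC slope as a covariate gave 1, GC adjustment 6, and GC adjustment of Dbp as well 1. All 13 slopes were positive under each of these, but the 13 were chosen by their slopes in the same libraries, so their signs are no separate test. The mouse numbers did not pair the libraries, and 3 numbers were shared between the sets. Dbp and library number had r = 0.30 within labelled knockouts and 0.63 within labelled wild types, and the middle libraries gave 45.8% by Spearman's correlation. The cause of none of these shifts was tested.

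Signs of small log2 fold changes (high over low Dbp) turned as follows. Over all 16 libraries in 3 sets, Npas2 was 0.0012. With the top 4 against the bottom 4, Nr1d1 was −0.016, Npas2 0.018, Nfil3 −0.050 and Cirbp −0.015. With the top 3 against the bottom 3, Per1 was −0.081, Cry2 −0.0077, Nr1d1 −0.070, Bhlhe40 −0.016, Nfil3 −0.13, Wee1 0.0046 and Cirbp −0.023. With the top 8 against the bottom 8, Per1 was −0.088, Cry2 −0.020, Gm129 −0.011, Wee1 0.0050 and Sphk2 0.011. With labelled genotype as a covariate, Npas2 was 0.0023. With library number, Nr1d2 was −0.030, Npas2 0.044 and Fos 0.29. With sex read from the data, over 16 libraries, Nfil3 was −0.0064. With sex over the 10 libraries, Nfil3 was −0.012. In male-like libraries alone, Nfil3 was −0.028 and Sphk2 0.0045. With the oligodendrocyte score, Arntl was 0.054, Clock 0.049, Npas2 0.088, Rorb −0.011, Usp2 −0.0032, Tspan4 −0.071, Tsc22d3 −0.16 and Fos 0.021. With the cortical score, Nr1d2 was −0.026 and Sphk2 0.021. With the projection neuron score, Nr1d2 was −0.034 and Sphk2 0.019. On flow cell 2 alone, Npas2 was 0.010. Without the 2 choroid plexus libraries, Nr1d2 was −0.028, Npas2 0.014, Rorb −0.028, Fos 0.11 and Sphk2 0.018. With the replicate block, Nr1d2 was −0.080, Bhlhe40 −0.024, Npas2 0.071, Rorb −0.025, Fos 0.32 and Sphk2 0.071. With the library GC slope, Clock was 0.068, Npas2 0.015, Nfil3 −0.020 and Tsc22d3 −0.065. With GC adjustment, Clock was 0.0066. With libraries ranked by GC-adjusted Dbp as well, Nr1d1 was −0.0027, Clock 0.028, Npas2 0.0021, Nfil3 −0.027 and Tsc22d3 −0.024. Leaving out 1 library took Clock from −0.084 to 0.0014, Npas2 from −0.051 to 0.020, Tsc22d3 from −0.033 to 0.17, Nr1d2 from −0.039 to 0.065, Fos from −0.29 to 0.044, Sphk2 from −0.059 to 0.021, Bhlhe40 from −0.028 to 0.11, Rorb from −0.031 to 0.14 and Nfil3 from −0.047 to 0.14.

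Over the named genes, 2110 values kept their sign and side of the threshold, 77 turned sign and 16 passed the threshold, while 177 values of the 13 slope genes no longer passed it and 200 did as before. Labelled knockout 3 is a middle library, so leaving it out gave no other value for the sets. The sets are 5 mice each, chosen by 1 gene's level at unknown times of day, and the 95% intervals of 18 of 20 clock genes include 0.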
